A study of Homo sapiens with 9 samples.

Results

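The 49 genes described here encode the RNA polymerase I machinery and the nucleolar proteins that modify, cut and assemble ribosomal RNA. They were taken by gene name from the deposited transcript tables, where all 49 were found among 60966 genes. By function, 7 belong to Pol I transcription, 9 to the small nucleolar ribonucleoproteins (snoRNPs), 16 to small subunit processing and 14 to large subunit processing, and 3 nucleolar proteins act at several steps. Expression was measured by RNA-seq of poly(A)-selected RNA from the established lung carcinoma line H1299, of human non-small cell origin, taken 48 h after siRNA transfection. Cells received a scrambled control siRNA (Scramble) or 1 of 2 siRNAs against FIBP, the gene of FGF1 intracellular binding protein, named Si-FIBP#1 and Si-FIBP#2, with 3 samples in each group. All groups came from the same line and were transfected, none was left untreated, and both comparisons with Scramble share its 3 samples.

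Pol I transcribes the long precursor that holds the 18S, 5.8S and 28S rRNAs. Box C/D snoRNPs guide methylation of this precursor and box H/ACA snoRNPs guide the conversion of its uridines to pseudouridine, while the small subunit processome and the pre-60S factors fold and cut it. Growing tumour cells make ribosomes at a high rate.

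FIBP was depleted with both siRNAs. It was at 88.38, 79.49 and 77.74 FPKM (a fragment count divided by transcript length and library size) in Scramble. Si-FIBP#1 left 7.49, 7.77 and 4.30 FPKM, and Si-FIBP#2 left 7.13, 5.92 and 8.21 FPKM. The means with the siRNAs were 7.96% and 8.66% of the Scramble mean, so depletion was incomplete. Depth, estimated from the smallest steps of the values, was between 20150000 and 23800000 fragments per library, and samples of 1 group correlated across genes at 0.983 to 0.988. The epithelial and line markers KRT8, KRT18, VIM and AXL were expressed in every sample and fell with both siRNAs, to between 36.7% (KRT18 with Si-FIBP#2) and 71.4% (VIM with Si-FIBP#1) of Scramble. Those of blood, endothelial, fibroblast and liver cells (PTPRC, PECAM1, CDH5, COL3A1 and ALB) did not exceed 1.00 FPKM. All 6 proliferation markers examined fell with both siRNAs, and MKI67 was at 48.96 to 52.38 FPKM in Scramble, 16.05 to 18.85 after Si-FIBP#1 and 21.82 to 30.66 after Si-FIBP#2. Their part in the results below was not tested, and in these bulk samples fewer dividing cells and less RNA per cell cannot be told apart.

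The 49 genes fell more often than they rose. A gene was called at a Benjamini-Hochberg adjusted p below 0.05 over the 14985 genes that reached 1 FPKM in 3 or more samples, a filter that all 49 genes passed. With Si-FIBP#1, 22 of the 49 were lower, against 19.9% of all genes tested, and 6 were higher, against 27.8%. With Si-FIBP#2, 24 were lower and 2 higher, against 17.7% and 31.1%. The median log2 fold change, on the log2(FPKM + 1) scale, was -0.10 in the first comparison and -0.22 in the second, where the medians of all genes tested were 0.07 and 0.11. The list therefore lay below the genes as a whole with each siRNA, by fold changes that were small. Median ratio scaling, which puts the medians of all genes near 0, gave -0.18 and -0.34. Under it 26 members were lower and 2 higher with Si-FIBP#1, where all genes split into 3595 lower and 3356 higher in place of 2976 and 4170. After Si-FIBP#2 it gave 32 and 0 members, and all genes split into 3667 and 3328 in place of 2656 and 4653.

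Both siRNAs lowered 19 of the 49, against 13.7% of all genes, and both raised 2, against 21.8%. In 21 of the 49 (42.9%) all 6 FIBP-depleted samples lay below all 3 Scramble samples, against 16.5% of all genes. In 3, RRN3, UTP3 and UTP14A, all 6 lay above, against 26.3%. No gene was called in opposite directions, 7 were called with Si-FIBP#1 alone, 5 with Si-FIBP#2 alone and 16 with neither. The shares of all genes in these classes were not computed, so no trait of the list is read from them. At the threshold of the study, which adds a fold change over 2, SENP3 passed with Si-FIBP#2 and no member passed with Si-FIBP#1, where 31 of the 49 had an unadjusted limma p below 0.05, near the 54.5% of all genes that did (29 of the 49 and 55.2% of all genes after Si-FIBP#2). Among all genes, Si-FIBP#2 put 5.05% past that threshold and Si-FIBP#1 put 5.66% past it.

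The members were expressed above the typical gene. Their median Scramble level was 35.2 FPKM, compared with 10.0 FPKM over all genes tested. Summed over the 49, the level was 6383 to 6687 FPKM in Scramble, 5852 to 6095 for Si-FIBP#1 and 5575 to 5786 for Si-FIBP#2, so the 3 groups did not overlap in this sum. As a share of the total FPKM this was 0.810% to 0.853%, 0.722% to 0.745% and 0.710% to 0.741% respectively. The last 2 ranges overlapped. Abundant genes weigh most in the sum. Without NPM1 it was 4104 to 4135 FPKM in Scramble, 3685 to 3718 for Si-FIBP#1 and 3319 to 3539 for Si-FIBP#2, again without overlap. Between the siRNAs, much of the gap lay in FBL (means of 769 and 636 FPKM) and NOP10 (490 and 420), so it does not describe the 49 as a whole.

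**Figure D1:**
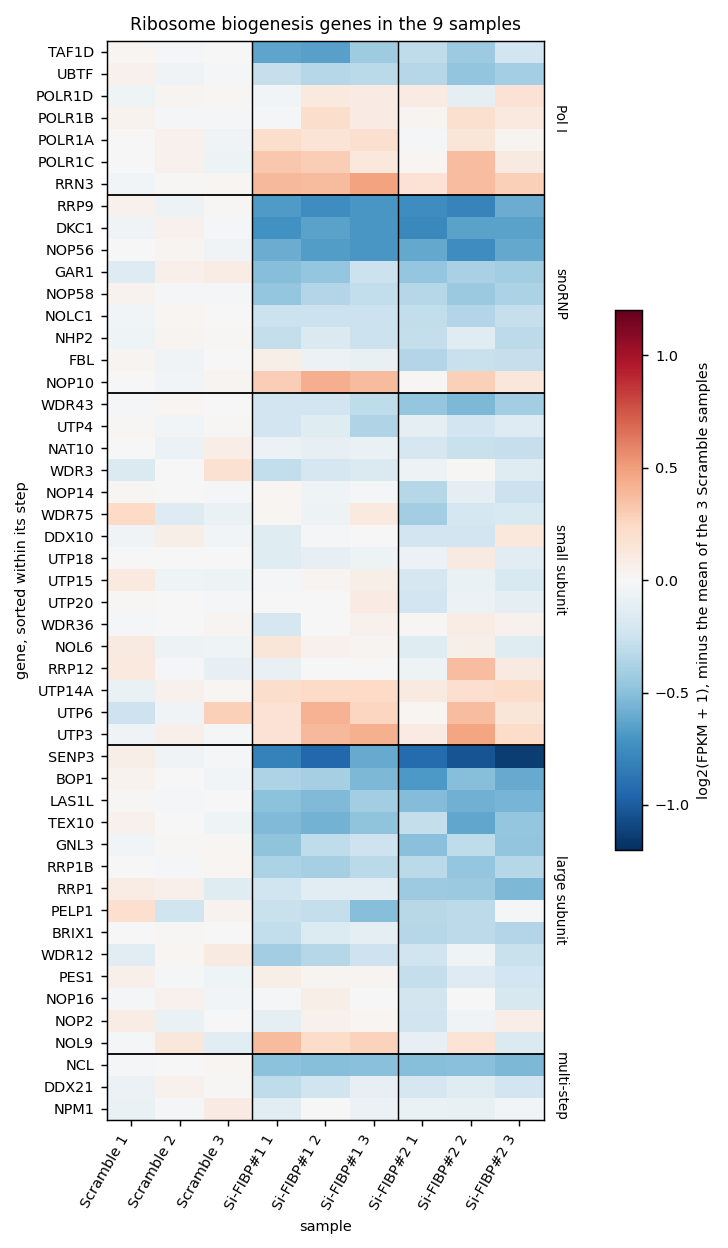
Each row is a gene and each column a sample, and colour gives log2(FPKM + 1) minus the mean of the 3 Scramble samples, with blue for lower and red for higher. Rows are grouped by step and sorted within it. Most snoRNP and many large subunit rows are blue in all 6 FIBP-depleted samples, SENP3 is the darkest, and RRN3, UTP3 and UTP14A are red in all 6.

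The 7 Pol I genes among the 49 did not move as a group. The median log2 fold change of the 7 was 0.10 for Si-FIBP#1 and 0.05 for Si-FIBP#2, close to the medians of all genes. POLR1A and POLR1B, the largest subunits that form the catalytic centre, and POLR1C and POLR1D, which Pol I shares with Pol III, went from 10.3 to 11.9 and 10.7, from 19.7 to 21.2 and 21.5, from 48.5 to 57.9 and 54.8, and from 66.2 to 69.2 and 68.9 mean FPKM in Scramble, Si-FIBP#1 and Si-FIBP#2. POLR1A (log2 fold change 0.19, adjusted p = 0.042) and POLR1C (0.25, adjusted p = 0.046) rose with Si-FIBP#1, and the 4 subunits did not pass the test with Si-FIBP#2. Both calls lay close to the threshold and passed in 7 and 8 of 19 settings, and TPM and median ratio scaling were among those in which they did not.

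The 3 Pol I factors went in different directions. UBTF, which binds along the rRNA gene and keeps its chromatin open, was at 44.03, 41.00 and 42.00 FPKM in Scramble, 34.81, 33.09 and 33.70 after Si-FIBP#1, and 33.17, 30.27 and 31.75 after Si-FIBP#2. It fell by 0.31 on the log2 scale (SE 0.055, adjusted p = 0.0013) and by 0.41 (SE 0.055, adjusted p = 2.8e-04), with no overlap with Scramble. RRN3, the initiation factor also called TIF-IA that carries Pol I to the promoter, was at 18.30, 18.90 and 19.05 FPKM in Scramble, 24.92, 24.65 and 26.68 after Si-FIBP#1, and 21.28, 24.50 and 23.00 after Si-FIBP#2. It rose by 0.42 (SE 0.066, adjusted p = 6.3e-04) and 0.27 (SE 0.066, adjusted p = 0.0066), the largest rise among the 49 with each siRNA. With median ratio scaling the rise with Si-FIBP#2 was 0.16 (adjusted p = 0.068) and no longer passed. PDXDC1, on the opposite strand, overlaps RRN3 at a similar level (a mean of 24.1 FPKM over the 9 samples, and 22.4 for RRN3), and its part in the value was not tested.

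TAF1D, a subunit of the selectivity factor SL1 that places Pol I at the promoter, fell as a gene sum. It was at 90.14, 87.31 and 88.08 FPKM in Scramble, 56.64, 55.99 and 65.51 after Si-FIBP#1, and 71.23, 65.36 and 75.30 after Si-FIBP#2. On the log2 scale its change was -0.57 (SE 0.072, adjusted p = 1.7e-04) for the first siRNA and -0.32 (SE 0.072, adjusted p = 0.0046) for the second. This sum held little mRNA for the protein, since protein-coding transcripts made up 10.6% of it in Scramble. Over those transcripts alone, a setting chosen after the values were seen, the fold changes were -0.03 (adjusted p = 0.84) and 0.04 (adjusted p = 0.79). The retained-intron transcript ENST00000525928 fell from 8.07 ± 0.42 FPKM (SD, n = 3) to 3.89 ± 0.32 and 5.397 ± 0.15, while ENST00000323981, annotated as a target of nonsense-mediated decay, rose from 3.52 ± 0.50 to 5.14 ± 0.65 and 5.29 ± 0.48. TAF1D was the only one of the 49 with transcripts called lower and higher with both siRNAs.

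The mRNAs of the snoRNP proteins fell, with 2 exceptions. Of the 9, 7 fell with both siRNAs and had no overlap with Scramble, where 13.7% of all genes were lower with both and 16.5% lay below Scramble in all 6 samples. The medians were -0.37 and -0.39. FBL (fibrillarin, the methyltransferase), NOP56 and NOP58 form the box C/D core, DKC1 (dyskerin, the pseudouridine synthase), NHP2, NOP10 and GAR1 form the H/ACA core, RRP9 binds the U3 snoRNA, and NOLC1 escorts snoRNPs in the nucleolus and Cajal body. NOP58, NHP2, GAR1 and NOLC1 kept 73.7% to 84.5% of their Scramble mean.

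RRP9 fell most among them. The gene lies on chromosome 3 from 51933430 to 51941941 (GRCh38, minus strand). It was at 34.78, 32.10 and 33.85 FPKM in Scramble, 20.51, 19.62 and 20.35 after Si-FIBP#1, and 19.63, 18.88 and 21.90 after Si-FIBP#2. The means were 60.04% and 59.97% of Scramble (log2 fold change -0.71, SE 0.067, adjusted p = 2.9e-05 and 3.0e-05). DKC1 was close to it, at 91.72, 98.33 and 93.70 FPKM in Scramble, 56.90, 60.09 and 57.86 after Si-FIBP#1, and 55.05, 60.34 and 60.10 after Si-FIBP#2. Its mean fell to 61.6% and 61.9% (adjusted p = 8.8e-06 and 1.0e-05). Both genes were far below Scramble in all 6 samples and nearly equal between the siRNAs.

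NOP56 fell to 63.4% and 63.3% of Scramble (log2 fold change -0.66 with each, adjusted p = 8.5e-06 and 9.7e-06). It was at 224.81, 228.26 and 217.74 FPKM in Scramble, 147.91, 140.10 and 137.02 after Si-FIBP#1, and 146.00, 133.32 and 145.38 after Si-FIBP#2. The larger part of the loss lay in 1 transcript that is not annotated as coding. ENST00000492135, a processed transcript that made up 49.5% of the Scramble sum, went from 111 ± 5.41 FPKM to 51.6 ± 2.46 and 49.2 ± 7.03 (adjusted p = 1.9e-04 and 1.6e-04 over 47662 single transcripts). The coding ENST00000329276 went from 61.5 ± 3.02 to 50.2 ± 1.06 and 54.7 ± 3.46 FPKM, a fall of 0.29 with Si-FIBP#1 (adjusted p = 0.013) and a value of -0.17 with Si-FIBP#2 (adjusted p = 0.10). Over all coding transcripts together NOP56 fell with both, by 0.33 (adjusted p = 0.0013) and 0.20 (adjusted p = 0.019). NOP56 lies on chromosome 20 from 2652145 to 2658393 (plus strand) and holds SNORA51, SNORD110, SNORD56, SNORD57 and SNORD86.

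FBL and NOP10 were the exceptions of this step. FBL was at 802.33, 761.24 and 786.29 FPKM in Scramble, 823.65, 747.20 and 737.52 after Si-FIBP#1, and 612.12, 649.13 and 647.45 after Si-FIBP#2. Si-FIBP#1 samples overlapped Scramble (-0.03, adjusted p = 0.69), and those of Si-FIBP#2 lay below both other groups (-0.30, SE 0.050, adjusted p = 9.3e-04). NOP10, the smallest H/ACA core protein, was at 378.54, 370.30 and 386.34 FPKM in Scramble, 465.42, 511.48 and 492.01 after Si-FIBP#1, and 383.01, 461.08 and 415.69 after Si-FIBP#2. It rose with Si-FIBP#1 (0.37, SE 0.066, adjusted p = 0.0013) and did not pass with Si-FIBP#2 (0.15, adjusted p = 0.092), where 1 sample lay within the Scramble range. With Si-FIBP#1, genes of the same particle thus went in different directions, with DKC1, NHP2 and GAR1 lower and NOP10 higher. With Si-FIBP#2, DKC1, NHP2 and GAR1 were lower and NOP10 did not pass.

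Of the 16 small subunit processing genes, Si-FIBP#1 lowered 2 and Si-FIBP#2 lowered 3, near the 19.9% and 17.7% of all genes. They raised 2 and 1, where 27.8% and 31.1% of all genes rose. Only WDR43 of the 16 fell with both siRNAs and only UTP14A rose with both, and the medians were -0.02 and -0.09. In 10 of the 16 no test passed with either siRNA, and the share of all genes called with neither was not computed. These were UTP6, UTP15, UTP18, UTP20, WDR3, WDR36, WDR75, NOL6, RRP12 and DDX10, components of the processome or factors of the small subunit precursor. UTP4, a t-UTP protein that joins the precursor early, fell with Si-FIBP#1 (-0.24, adjusted p = 0.013), and NAT10, which acetylates cytidines of 18S rRNA, fell with Si-FIBP#2 (-0.25, adjusted p = 0.0048).

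WDR43, also a t-UTP protein, was at 32.77, 33.81 and 33.27 FPKM in Scramble, 28.21, 28.25 and 26.68 after Si-FIBP#1, and 23.81, 22.54 and 24.64 after Si-FIBP#2. The 3 groups did not overlap, and it fell to 83.3% (adjusted p = 0.0039) and 71.1% (adjusted p = 1.1e-04). UTP3, a processome protein also called SAS10, was at 23.81, 25.64 and 24.17 FPKM in Scramble, 27.80, 32.42 and 33.34 after Si-FIBP#1, and 26.41, 34.52 and 28.80 after Si-FIBP#2. All 6 depleted samples lay above Scramble, with a rise of 0.33 with Si-FIBP#1 (SE 0.10, adjusted p = 0.023) and a value of 0.27 with Si-FIBP#2 (adjusted p = 0.052), and the rise did not pass with median ratio scaling (0.25, adjusted p = 0.057). UTP14A, a processome protein that binds the helicase DHX37, rose by 0.22 (adjusted p = 0.010) and 0.18 (adjusted p = 0.030), and neither rise passed with median ratio scaling. The rise of UTP3 with Si-FIBP#1 and that of UTP14A with Si-FIBP#2 each passed in 13 of 19 settings, and both were lost without Scramble replicate 1 or 3, the former also without Si-FIBP#1 replicate 2 or 3 and the latter also without Si-FIBP#2 replicate 2 or 3. NOP14, which joins the same precursor, was at 49.45, 49.25 and 48.51 FPKM in Scramble, 50.02, 47.37 and 48.35 after Si-FIBP#1, and 38.49, 45.35 and 40.77 after Si-FIBP#2. It fell with Si-FIBP#2 (-0.24, SE 0.063, adjusted p = 0.011), and the Si-FIBP#1 samples overlapped Scramble. This fall did not pass over annotated or coding transcripts alone.

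Many large subunit factors fell. Of the 14, 7 fell with both siRNAs (BOP1, BRIX1, RRP1B, GNL3, LAS1L, SENP3 and TEX10), against 13.7% of all genes. None rose, where 27.8% and 31.1% of all genes did, and the medians were -0.34 and -0.36. The 5 proteins that cut and clear the internal transcribed spacer ITS2 (the nuclease LAS1L, its partner kinase NOL9, the SUMO protease SENP3, and the scaffolds PELP1 and TEX10) had medians of -0.48 and -0.46. In this set LAS1L, SENP3 and TEX10 fell with both siRNAs, PELP1 passed with Si-FIBP#1 alone (-0.36, adjusted p = 0.045, a call that passed in 9 of 19 settings) and NOL9 with neither.

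SENP3 had the largest fall of the 49. It was at 36.86, 34.11 and 34.51 FPKM in Scramble, 19.60, 17.83 and 22.83 after Si-FIBP#1, and 18.08, 16.64 and 15.39 after Si-FIBP#2. The mean went from 35.2 ± 1.49 to 20.1 ± 2.54 and 16.7 ± 1.35 FPKM (SD, n = 3), with a log2 fold change of -0.78 (SE 0.093, adjusted p = 1.2e-04) and -1.03 (SE 0.093, adjusted p = 2.3e-05), and no depleted sample reached the Scramble range. The Si-FIBP#2 value was -0.999 without Scramble replicate 1, -0.98 without Si-FIBP#2 replicate 3 and -0.98 over coding transcripts, and in these settings SENP3 did not pass the 2-fold threshold.

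The transcripts of SENP3 did not all fall. ENST00000321337, the most abundant in Scramble, went from 22.01 ± 1.504 to 8.52 ± 4.04 and 4.31 ± 3.74 FPKM, and passed with Si-FIBP#2 (adjusted p = 0.034) but not with Si-FIBP#1 (adjusted p = 0.21). ENST00000429205 was at 5.39 ± 2.36, 7.59 ± 2.14 and 9.21 ± 3.64 FPKM and did not pass (adjusted p = 0.37 and 0.20). SENP3 lies on chromosome 17 from 7561875 to 7571969 (GRCh38, plus strand). The readthrough gene SENP3-EIF4A1 overlaps it on that strand and was at 6.89 to 7.55 FPKM in Scramble, 8.19 to 10.06 after Si-FIBP#1 and 10.14 to 13.16 after Si-FIBP#2, a rise with each (adjusted p = 0.026 and 9.6e-04). How the reads they have in common were divided between the genes was not tested.

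LAS1L was at 59.92, 58.09 and 59.46 FPKM in Scramble, 41.72, 40.58 and 43.91 after Si-FIBP#1, and 40.95, 39.29 and 39.90 after Si-FIBP#2 (-0.48 and -0.55, SE 0.049, adjusted p = 4.5e-05 and 2.2e-05). Its transcript ENST00000374811 fell from 13.8 ± 0.54 to 3.97 ± 0.77 and 6.83 ± 2.54 FPKM (adjusted p = 0.0023 and 0.021), while the main transcript ENST00000374807 went from 34.6 ± 1.38 to 30.0 ± 1.09 and 26.4 ± 1.93 (adjusted p = 0.079 and 0.0067). The smaller of these coding transcripts in level thus lost the larger share. TEX10 was at 35.10, 33.90 and 32.76 FPKM in Scramble, 23.13, 22.56 and 23.98 after Si-FIBP#1, and 27.66, 21.59 and 24.37 after Si-FIBP#2, a fall to 68.5% and 72.4%. NOL9 was the lowest of the 49 in level, at 5.68, 6.39 and 5.16 FPKM in Scramble, 7.77, 6.81 and 7.14 after Si-FIBP#1, and 5.30, 6.54 and 4.97 after Si-FIBP#2. It did not pass with either siRNA (0.29, adjusted p = 0.053, and -0.03, adjusted p = 0.82), although the 3 Si-FIBP#1 samples lay above Scramble.

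BOP1, PES1 and WDR12 form the PeBoW complex, which acts on the 5.8S and 28S part of the precursor. BOP1 fell with both siRNAs (-0.44 and -0.60, adjusted p = 4.3e-04 and 6.4e-05). WDR12 passed with Si-FIBP#1 alone (-0.34, adjusted p = 0.0083), a call lost over coding transcripts, which made up 12.3% of its Scramble sum. PES1 was at 72.37, 68.67 and 66.66 FPKM in Scramble, 72.79, 70.67 and 70.84 after Si-FIBP#1, and 56.75, 62.12 and 58.92 after Si-FIBP#2, and fell with Si-FIBP#2 alone (-0.22, SE 0.052, adjusted p = 0.0062). The 3 partners therefore did not share a pattern of calls.

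Of the other large subunit factors, GNL3 (nucleostemin, a nucleolar GTPase of proliferating cells) fell to 78.6% and 74.1%, RRP1B to 76.6% and 76.2%, and BRIX1, a pre-60S assembly factor, to 87.8% and 78.7%. The first call of BRIX1 was lost without Scramble replicate 2 or 3 or Si-FIBP#1 replicate 1. RRP1, the paralog of RRP1B, was at 35.29, 34.59 and 29.93 FPKM in Scramble, 27.94, 30.27 and 30.30 after Si-FIBP#1, and 24.21, 24.14 and 22.53 after Si-FIBP#2. It fell with Si-FIBP#2 (-0.47, SE 0.073, adjusted p = 5.8e-04), and its Si-FIBP#1 samples overlapped Scramble. NOP2, which methylates 28S rRNA, and NOP16 passed with neither siRNA. AC006064.6 overlaps NOP2 on the same strand, at a mean of 31.3 FPKM over the 9 samples against 52.1 for NOP2. HIGD2A overlaps NOP16 on the opposite strand, at 219 against 98.9 FPKM. The part of these overlaps in the values was not tested.

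The nucleolar proteins that act at several steps are among the most abundant of the 49. NCL (nucleolin), which binds the nascent precursor, was at 485.58, 490.22 and 501.14 FPKM in Scramble, 349.90, 344.56 and 347.89 after Si-FIBP#1, and 346.01, 348.37 and 339.51 after Si-FIBP#2. It fell to 70.6% of Scramble with Si-FIBP#1 and no further with Si-FIBP#2 (log2 fold change -0.50 and -0.51, SE 0.034, adjusted p = 4.0e-06 and 4.1e-06), the smallest p-values of the 49, and its coding transcript and an assembled one fell alike. DDX21, a helicase that follows Pol I transcription, fell to 86.1% and 87.5% (adjusted p = 0.017 and 0.029). These calls passed in 15 and 14 of 19 settings. Both were lost without Scramble replicate 2 or 3, the first also without Si-FIBP#1 replicate 1 or 2, and the second also without Si-FIBP#2 replicate 1 or 3 or without a filter, with adjusted p-values up to 0.067 and 0.10.

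NPM1 (nucleophosmin), the histone chaperone of the outer nucleolus, was the most abundant of the 49, at 2254.55, 2351.52 and 2552.03 FPKM in Scramble, 2167.53, 2377.54 and 2272.41 after Si-FIBP#1, and 2256.19, 2246.60 and 2329.79 after Si-FIBP#2. The groups overlapped, and the gene sum did not pass (-0.07 with each, adjusted p = 0.30 and 0.33), although with median ratio scaling it did with Si-FIBP#2 (-0.19, adjusted p = 0.031). Its transcripts differed from the sum with Si-FIBP#2. The coding ENST00000393820 fell from 661 ± 10.5 FPKM to 483 ± 26.2 (adjusted p = 0.0010), while the 268-base retained-intron transcript ENST00000523339 was at 21.15, 0.00 and 171.44 FPKM in Scramble, 86.94, 175.08 and 62.69 after Si-FIBP#1, and 281.96, 305.59 and 331.13 after Si-FIBP#2 (adjusted p = 0.25 and 0.081). Over coding transcripts alone NPM1 fell with Si-FIBP#2 by 0.23 (SE 0.041, adjusted p = 9.3e-04), a result chosen after the values were seen. NPM1 has 45 annotated pseudogenes, which together held 17.7 FPKM, and how reads were shared with them was not tested.

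**Figure D2:**
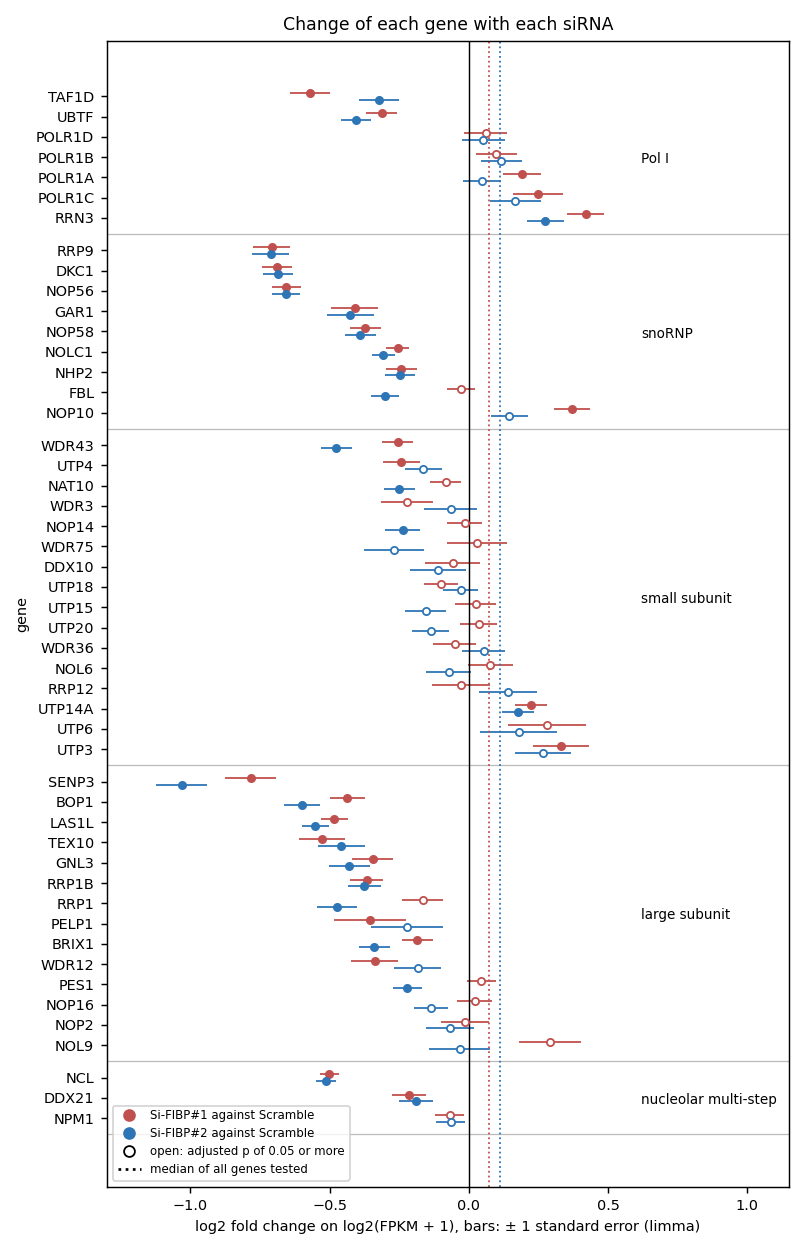
The log2 fold change of each gene against Scramble with Si-FIBP#1 (red) and Si-FIBP#2 (blue), on log2(FPKM + 1), with bars of 1 standard error from limma and filled points for an adjusted p below 0.05. Dotted lines mark the medians of all genes tested, 0.07 and 0.11, and most snoRNP and large subunit points lie left of them while the Pol I subunits lie near them.

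At the level of single transcripts, 214 transcripts of the 49 genes reached 1 FPKM in 3 samples. With Si-FIBP#1, 30 were lower and 8 higher, where 10% and 10.7% of all transcripts tested were. With Si-FIBP#2, 36 were lower and 4 higher, against 8.46% and 10.6%. The most abundant transcript held a median of 72.8% of a gene's Scramble level, from 15.8% to 100%, and in NOP56, NCL, TAF1D and WDR12 it was not annotated as protein coding.

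Another feature that the choice of genes did not use was the presence of snoRNA genes inside them. In GENCODE release 29, 8 of the 49 (POLR1C, TAF1D, NOP56, NOP58, DKC1, WDR43, GNL3 and NCL) hold snoRNAs on the same strand. These 8 had medians of -0.44 and -0.45, and 7 of them were lower with each siRNA. The other 41 had medians of -0.06 and -0.16, and 15 and 17 of them were lower, where 19.9% and 17.7% of all genes were. Of the 8 hosts, 3 (NOP56, NOP58 and DKC1) belong to the snoRNP step, and in TAF1D and NOP56 most of the fall lay in transcripts not annotated as coding. No difference between hosts and other members was tested. snoRNAs themselves are largely lost in poly(A) selection and were not analysed here.

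The promoters of these genes were searched for the E-box CACGTG, the site best known for binding of MYC and its relatives, which is the same on both strands. RefSeq windows (GRCh38.p14) from 250 bases before to 50 bases after the start were found for 44 of the 49. The motif was in 18 of the 44 (40.9%) and in 24 of 103 other ribosome biogenesis genes with a window (23.3%). It was in 12.8% of the 10208 tested genes with a window, in 8.77% of all genes with one and in 7.26% of all 35116 windows. A gene was counted if any of its windows held the motif, and GAR1, GNL3, TEX10 and DDX21 also have a window without it. By step it was in 0 of 7 Pol I genes, 4 of 7 snoRNP genes, 8 of 15 small subunit genes, 5 of 12 large subunit genes and 1 of the 3 multi-step genes. The sites of the genes that were lower with Si-FIBP#2 than with Si-FIBP#1, and then of the genes that fell with both, are shown with their flanks, 5′ to 3′ on the strand of the gene and with the motif in capitals. Not shown are the sites of NAT10, NOL6, NOP2, PELP1, UTP18, UTP20, UTP4 and UTP14A, of which UTP14A rose with both. Among genes that fell with both, UBTF, TAF1D, NOP56, DKC1, NHP2, BRIX1, LAS1L, SENP3 and NCL have windows without the motif. The sites shown thus do not link the motif to a fall. FBL has its site at chr19:39846368-39846373 (minus strand), NOP10 at chr15:34343142-34343147 (minus, the nearer of 2), NOP14 at chr4:2963386-2963391 (minus), PES1 at chr22:30591892-30591897 (minus) and WDR43 at chr2:28894670-28894675 (plus). RRP9 has it at chr3:51941904-51941909 (minus), GAR1 at chr4:109815793-109815798 (plus), GNL3 at chr3:52686038-52686043 (plus), TEX10 at chr9:100352967-100352972 (minus) and DDX21 at chr10:68956616-68956621 (plus).
FBL: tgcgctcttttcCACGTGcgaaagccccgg
NOP10: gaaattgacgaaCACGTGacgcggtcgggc
NOP14: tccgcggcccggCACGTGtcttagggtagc
PES1: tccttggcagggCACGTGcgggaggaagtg
WDR43: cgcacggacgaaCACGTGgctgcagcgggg
RRP9: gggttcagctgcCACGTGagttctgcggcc
GAR1: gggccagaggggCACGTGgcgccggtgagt
GNL3: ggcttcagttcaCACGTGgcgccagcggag
TEX10: gcgggctgcgatCACGTGagcacagcaggg
DDX21: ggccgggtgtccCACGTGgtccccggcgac

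A match is a stretch of letters and says nothing of binding in these cells. The 18 genes with the motif had median log2 fold changes of -0.09 and -0.22 against Scramble, and the 26 without it -0.06 and -0.15. RRN3 and UBTF, which moved in opposite directions, and the other Pol I genes have no CACGTG in the window.

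The siRNAs were also compared with each other. Of the 49, 6 were lower with Si-FIBP#2 than with Si-FIBP#1, against 5.8% of all genes, and 1 was higher, against 9.58%. The 6 were FBL (-0.27, SE 0.050, adjusted p = 0.0072), PES1 (-0.27, SE 0.052, adjusted p = 0.0094), RRP1 (-0.31, SE 0.073, adjusted p = 0.021), WDR43 (-0.22, SE 0.055, adjusted p = 0.026), NOP14 (-0.22, SE 0.063, adjusted p = 0.041) and NOP10 (-0.22, SE 0.066, adjusted p = 0.047), and TAF1D was the one higher (0.25, SE 0.072, adjusted p = 0.046). No member passed the 2-fold threshold in this comparison, where 0.561% of all genes did. An unadjusted limma p below 0.05 was found for 16 of the 49 and for 29.9% of all genes, which is close to the same share. The median over the 49 was -0.05, and that of all genes 0.04.

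The Si-FIBP#2 samples lay below the Si-FIBP#1 samples without overlap in the 6 lower genes. Since the test on these same values picked the genes, this adds no support to the calls. In NOP10 the gap was narrow, from 461.08 to 465.42 FPKM, and in TAF1D the groups overlapped, since 1 Si-FIBP#2 sample at 65.36 FPKM lay below 1 Si-FIBP#1 sample at 65.51. The calls of TAF1D, NOP10 and NOP14, with adjusted p-values closest to the threshold, passed in 8, 7 and 5 of 19 settings. That of WDR43 passed in 14 and was lost with TPM scaling, with only the groups compared and without Si-FIBP#1 replicate 1 or 2 or Si-FIBP#2 replicate 1. That of RRP1 passed in 15 and was lost over coding transcripts and without Si-FIBP#1 replicate 2 or 3 or Si-FIBP#2 replicate 3. The differences of FBL and PES1 passed in all 19. Of the 6 lower genes, 5 hold the E-box and RRP1 does not, where 40.9% of the members with a window hold it. The median difference was -0.07 both in the 18 genes with the motif and in the 26 without. Among all 1308 tested genes with the motif, 100 were lower and 147 higher with Si-FIBP#2 than with Si-FIBP#1, and among the 8900 without it 574 were lower and 985 higher. MYC was at 80.88, 70.43 and 81.55 FPKM in Scramble, 80.62, 79.57 and 76.28 after Si-FIBP#1, and 49.35, 48.70 and 46.01 after Si-FIBP#2. It fell with Si-FIBP#2 (-0.68, adjusted p = 3.1e-05) and was lower with it than with Si-FIBP#1 (-0.70, adjusted p = 3.2e-04), and its part in the differences above was not tested.

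A wider list of 123 other ribosome biogenesis genes, all expressed, gave the setting of the 49. With Si-FIBP#1, 39 of the 123 were lower and 24 higher, where 19.9% and 27.8% of all genes were. Si-FIBP#2 lowered 48 and raised 17, against 17.7% and 31.1%, and the medians were -0.04 and -0.11. Both siRNAs lowered 35 and raised 13, against 13.7% and 21.8%. The medians of the snoRNP, small subunit and large subunit steps lay closer together in the wider list than among the 49. Its 39 large subunit genes had medians of -0.06 and -0.08, with 9 lower and 7 higher after Si-FIBP#1 and 13 and 4 after Si-FIBP#2. Its 9 snoRNP genes had medians of -0.10 and -0.15, with 3 and 4 lower and 0 and 1 higher. Its 39 small subunit genes had 14 and 16 lower and 10 and 8 higher, with medians of 0.02 and -0.13. Its 13 Pol I genes had medians of -0.04 and 0.02, with 2 lower and 3 higher after Si-FIBP#1 and 6 and 3 after Si-FIBP#2. The 6 were POLR1E, POLR1G, POLR1H, POLR2H, TAF1A and TAF1B, named after their values were seen. The 13 include POLR2E, POLR2F, POLR2H, POLR2K and POLR2L, subunits that Pol I shares with Pol II and Pol III. All higher calls lay among these shared subunits, POLR2E, POLR2F and POLR2L with Si-FIBP#1 and POLR2E, POLR2K and POLR2L with Si-FIBP#2. The medians of the 13 therefore do not describe the genes particular to Pol I. Its 23 genes of RNase MRP and the exosome, which trim and cut the precursor, had medians of -0.05 and -0.12, with 11 and 9 lower and 4 and 1 higher. No difference between steps was tested. RSL1D1, a nucleolar protein with a ribosomal L1 domain, rose with Si-FIBP#1 (0.17, adjusted p = 0.018) and fell with Si-FIBP#2 (-0.29, adjusted p = 0.0012). EXOSC8, a core subunit of the RNA exosome, fell most by the mean of both comparisons, from 51.2 ± 3.57 FPKM in Scramble to 23.0 ± 1.17 and 25.4 ± 1.31. MRTO4, which prepares the site of the ribosomal stalk, fell from 55.4 ± 1.24 to 29.2 ± 0.72 and 27.0 ± 2.62 FPKM.

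NOC2L, a pre-60S transport factor, fell more with Si-FIBP#2, from 118 ± 1.69 FPKM in Scramble to 83.6 ± 2.62 with Si-FIBP#1 and 41.1 ± 4.37 with Si-FIBP#2 (difference between the siRNAs -1.01, adjusted p = 8.7e-05). RRP36, a small subunit factor that was singled out after its values were seen, did so too, at 79.7 ± 2.56, 67.8 ± 0.62 and 37.4 ± 3.19 FPKM. By the mean of both comparisons, the genes that rose most were NOB1, the endonuclease that makes the 3′ end of 18S rRNA, from 56.1 ± 2.26 to 97.4 ± 5.04 and 76.1 ± 0.07 FPKM, RIOK2, a kinase of the late small subunit precursor, from 10.7 ± 0.51 to 16.7 ± 1.39 and 14.7 ± 1.41, and the helicase DDX24, from 140 ± 5.20 to 208 ± 8.35 and 187 ± 26.4. The order differed within each comparison, since DDX49 rose most with Si-FIBP#2 (0.51, and 0.44 for NOB1) and MDN1 came after NOB1 with Si-FIBP#1 (0.60 and 0.78).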

How the data were processed

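RNA-seq of 9 H1299 samples, in 3 groups of 3, was analysed. The design text of the series calls the samples independent, and the labels give only replicate numbers. For each sample a table deposited by the authors gives FPKM per transcript, normalized to transcript length and mapped fragments, for Ensembl and assembled transcripts. The unit was inferred from the values. HISAT2 and StringTie are named in the submitters' processing notes. Versions, genome build, annotation and strand setting are not given in the sources used here. Without a strand setting, reads of overlapping genes on opposite strands, such as POLR1C and YIPF3 or UTP4 and CHTF8, cannot be told apart.

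FPKM were summed per gene identifier. The 14985 genes that reached 1 FPKM in 3 or more samples entered limma 3.58.1 (R 4.3.3), with a mean-variance trend and moderated variances, on log2(FPKM + 1) in 1 fit over the 9 samples. This scale understates changes of low genes. P-values were two-sided and were adjusted by the Benjamini-Hochberg method over all genes tested. The tables hold no counts, so no count test was run and no counting interval is given, and the precision of a value is the spread between samples. A further marker of the line is not reported here. Depth was estimated from the steps of low values. The limma fit, and no other step, was tested on simulated data, with known changes added to the Si-FIBP#1 samples. Positions and transcript types are from GENCODE release 29 (GRCh38), and promoters from RefSeq (GRCh38.p14). Python 3.11.15, pandas 2.3.3, numpy 2.4.6 and matplotlib 3.10.9 were used.

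The 49 genes, the 123 other genes and the tests were chosen with earlier results of these data known. Values in every sample are given for FIBP, members past 2-fold, members that differed between the siRNAs, the extremes of each step and the 3 most abundant, and also, chosen after their values were seen, for UBTF, DKC1, NOP56, LAS1L, TEX10 and MYC. Of the other genes, those past 2-fold with both siRNAs (none) and the 3 lowest and 3 highest were named. Chosen after their values were seen were RRP36, RSL1D1, DDX49, MDN1, the 6 Pol I genes lower with Si-FIBP#2 and the shared polymerase subunits. Alternatives were a pseudocount of 0.1, no filter, a filter of 5 FPKM, TPM or median ratio scaling, only the groups compared, the replicate number as a block, annotated transcripts only, leaving out each sample and, added after seeing the data, protein-coding transcripts only and single transcripts. Same-numbered samples of different groups correlated in their deviations at -0.06 to 0.10, and differently numbered ones at -0.14 to 0.05. These correlations were weak and their ranges overlapped, and whether the numbers pair the samples was not tested.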

Additional observations from a re-analysis of the deposited data

Results flagged for a closer look

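In 7 genes the effects of the siRNAs differed by the direct test of Si-FIBP#2 against Si-FIBP#1 (limma, Benjamini-Hochberg adjusted over all genes tested). TAF1D differed by 0.248 on the log2 scale and was less reduced with Si-FIBP#2 as a gene sum. Over coding transcripts alone it was at -0.034 and 0.043 against Scramble, and the difference was 0.077 (limma, adjusted p = 0.71). The other 6 were lower with Si-FIBP#2, with differences of -0.273 for FBL, -0.224 for NOP10, -0.220 for WDR43, -0.224 for NOP14, -0.266 for PES1 and -0.309 for RRP1. FBL, NOP14, PES1 and RRP1 passed against Scramble with Si-FIBP#2 and not with Si-FIBP#1. NOP10 was raised with Si-FIBP#1 and did not pass with Si-FIBP#2. WDR43 fell with both, and so did the gene sum of TAF1D. The differences of TAF1D, NOP10 and NOP14 passed in only 8, 7 and 5 of 19 settings.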

How the results depend on the processing

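In every alternative run, members lower than Scramble numbered 19 to 26 for Si-FIBP#1 and 23 to 32 for Si-FIBP#2. Median ratio scaling moved the medians of all genes from 0.07 and 0.11 to 0.004 and 0.005, and their split from 2976 lower and 4170 higher to 3595 and 3356 (Si-FIBP#1) and from 2656 and 4653 to 3667 and 3328 (Si-FIBP#2). Under it the member medians were -0.179 and -0.341, 2 and 0 members were higher against Scramble, 12 were lower and 0 higher between the siRNAs, 9 of the other pathway genes were higher with Si-FIBP#2, and PES1 was at -0.034 with Si-FIBP#1. For these shifts beyond the scaling itself, the cause was not tested.

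Members lower with Si-FIBP#2 than with Si-FIBP#1 numbered 3 with TPM scaling and 3 with only the groups compared. The 1 higher member, TAF1D, was lost (0 left) without a filter, with only the groups compared and over protein-coding transcripts. With only the groups compared 1 member was higher with Si-FIBP#2 against Scramble, and over protein-coding transcripts 0 passed 2-fold and TAF1D was at 0.043. Other pathway genes higher with Si-FIBP#2 than with Si-FIBP#1 numbered 3, and 7 with TPM scaling or protein-coding transcripts.

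With the replicate number as a block, 21 and 25 members were lower and 5 and 3 higher against Scramble, and 5 other pathway genes were higher between the siRNAs. Of all 14985 genes tested, 2942 and 2649 were then lower and 4139 and 4638 higher against Scramble. Same-numbered samples correlated weakly at most in their deviations, and this fit pairs samples by number only.

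Leaving out 1 sample at a time, members higher numbered 3 to 7 with Si-FIBP#1 (3 without Scramble replicate 1 or Si-FIBP#1 replicate 2) and 1 to 4 with Si-FIBP#2 (1 without Scramble replicate 1 or 3, or Si-FIBP#2 replicate 2 or 3, and 4 without Si-FIBP#2 replicate 1). Between the siRNAs 2 to 9 were lower (2 without Si-FIBP#1 replicate 2, 3 without Si-FIBP#1 replicate 3 or Si-FIBP#2 replicate 1 or 3, 9 without Si-FIBP#2 replicate 2) and 0 to 1 higher (1 without Si-FIBP#1 replicate 3 or Si-FIBP#2 replicate 2 and 0 otherwise). Past 2-fold with Si-FIBP#2 there were 0 to 1.

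Among genes with values in every sample, sign changes concerned differences that had not passed, apart from TAF1D. Against Scramble, FBL ran from -0.077 to 0.0026 and NOP14 from -0.035 to 0.0032 with Si-FIBP#1 when 1 sample was left out, NOL9 from -0.133 to 0.036 with Si-FIBP#2, and PES1 was at -0.000295 with TPM scaling. Between the siRNAs, NPM1 ran from -0.030 to 0.037, RRP9 from -0.063 to 0.039 and UTP3 from -0.167 to 0.020. NCL was at 0.033 with TPM scaling and 0.0035 with annotated transcripts, RRP9 at 0.039 and 0.0076 in those, and NPM1 at -0.039 with median ratio scaling and -0.134 over protein-coding transcripts, with RRP9 at 0.0076 there too. Of 756 values for single genes under an alternative, 661 kept their direction and side of the threshold. These values cover only members past 2-fold, members that differed between the siRNAs, the extremes of each step and the 3 most abundant. FPKM hold no counts, so the spread between 3 samples limits what can be told apart.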
